A study of Mus musculus with 12 samples.

Results

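The imprinted genes examined here were 10 genes chosen by name, H19, Peg10, Peg3, Gnas, Mest, Plagl1, Cdkn1c, Grb10, Dlk1 and Ndn, with all probes that the platform annotation gives to them. H19 was not analysed here, and the other 9 genes had 29 probes, of which 13 probes of 6 genes were detected on at least 3 arrays and tested, among 10258 genes with a tested probe in all. Podocytes are the epithelial cells on the outer side of the glomerular capillaries, and total RNA of a mouse podocyte culture was measured on 12 Illumina arrays in 4 groups of 3. The control cells received neither agent, a further group received DZNep, another received high glucose, and the last received high glucose plus DZNep, each agent for 48 hours. DZNep is 3-deazaneplanocin A, which blocks the hydrolase of S-adenosylhomocysteine and is called an EZH2 inhibitor in the series title, EZH2 being the histone methyltransferase of Polycomb repressive complex 2. The labels describe the material as a cell line and give no genotype, clone, DZNep dose or glucose concentration. Whether replicates came from separate cultures is not stated, and the p-values cover only the spread among these arrays, which may be technical.

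An imprinted gene is transcribed mainly from the copy inherited from the mother or mainly from the copy inherited from the father, and the choice is kept by DNA methylation placed at control regions in the germ line. In some imprinted clusters a long non-coding RNA also brings repressive histone marks, including those of Polycomb, to neighbouring genes. Many imprinted genes act in fetal growth, and the cell cycle inhibitor Cdkn1c is known as a marker of the maturing podocyte. The arrays measured the RNA of both copies together, so the values below are total levels and say nothing of the allele of origin.

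The start-site regions of Peg3 and Gnas, both with probes that passed in a comparison below, are shown first. No window of Peg10 or Cdkn1c is shown. RefSeq windows of assembly GRCm38.p6, from 250 bases before to 50 bases after an annotated start, were held for 7 of the 10 genes, in 13 windows. Peg3, whose main probe rose with DZNep in high glucose, is shown with its single window, chr7:6730370-6730669 on the minus strand. The capitals mark TGACGTCA, the palindromic cyclic AMP response element, searched on both strands and present in 1.79% of 32851 windows of this length. Among the 13 windows of the imprinted genes it was found in that of Peg3 only, and its part in the change of Peg3 was not tested.
Peg3: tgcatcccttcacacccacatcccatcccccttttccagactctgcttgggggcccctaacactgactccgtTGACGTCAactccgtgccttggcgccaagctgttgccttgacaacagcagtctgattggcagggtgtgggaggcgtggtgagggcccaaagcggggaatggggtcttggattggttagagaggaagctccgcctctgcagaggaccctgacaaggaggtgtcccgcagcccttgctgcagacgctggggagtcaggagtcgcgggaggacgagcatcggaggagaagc
Gnas, whose brighter probes fell with DZNep, is shown with 3 windows of its plus strand that do not overlap, because the gene has several promoters and its probes were annotated to different transcripts. They are chr2:174284070-174284369, chr2:174327499-174327798 and chr2:174329756-174330055, in the order of the lines below, and the capitals mark every CG pair, the site of DNA methylation.
Gnas window 1: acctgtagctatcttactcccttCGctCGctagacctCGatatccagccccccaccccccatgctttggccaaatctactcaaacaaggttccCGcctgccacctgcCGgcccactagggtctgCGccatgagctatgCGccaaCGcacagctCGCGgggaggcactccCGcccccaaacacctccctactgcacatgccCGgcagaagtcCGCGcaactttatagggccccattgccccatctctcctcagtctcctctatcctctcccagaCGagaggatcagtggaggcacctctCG
Gnas window 2: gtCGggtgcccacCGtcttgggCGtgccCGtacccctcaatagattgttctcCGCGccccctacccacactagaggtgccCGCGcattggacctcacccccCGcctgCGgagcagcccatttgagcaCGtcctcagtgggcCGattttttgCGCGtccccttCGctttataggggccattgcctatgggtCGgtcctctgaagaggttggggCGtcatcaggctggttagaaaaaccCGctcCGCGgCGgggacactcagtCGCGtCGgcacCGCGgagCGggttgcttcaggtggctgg
Gnas window 3: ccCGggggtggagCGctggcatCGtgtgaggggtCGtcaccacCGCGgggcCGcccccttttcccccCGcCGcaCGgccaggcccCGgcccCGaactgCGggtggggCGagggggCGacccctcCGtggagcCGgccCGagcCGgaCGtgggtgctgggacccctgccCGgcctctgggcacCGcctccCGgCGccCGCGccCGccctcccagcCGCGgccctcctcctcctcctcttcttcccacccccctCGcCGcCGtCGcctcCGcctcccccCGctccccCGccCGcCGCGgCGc
The Gnas windows held 16, 27 and 40 CG pairs in that order, and the Peg3 window held 13, against a median of 7 over all windows. As many CG pairs or more were found in 33%, 15.5% and 3.91% of all windows for Gnas and in 37.9% for Peg3. The letters GCCATNTT, the core of the motif of the factor YY1, were searched on both strands and were in 6.05% of all windows and in 0 of the 13 windows of the imprinted genes. No methylation was measured, so these counts describe the sequence only.

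Between 38.4% and 41.3% of probes were detected per array, with a median raw intensity of 133.2 to 151.4. Over the tested probes the arrays correlated at 0.973 to 0.996, and the arrays with and without DZNep fell on opposite sides of the first principal component (44.3% of the variance). Control replicate 3 stood apart on the second component, at -26.6 where all other arrays lay at -9.2 or above. It was also the lowest on the first component, at -34.1 where the other arrays without DZNep lay at -20.5 to -9.4. Leaving it out is reported below. Of the podocyte markers, 6 of 12 were detected (Nphs1, Synpo, Podxl, Cd2ap, Actn4 and Lmx1b), whereas the probes of Ptpro, Tcf21, Plce1 and Foxc2 were not detected. Ezh2 was lower with DZNep at its brighter probe, by a log2 change of -0.89 (SE 0.097, adjusted p = 0.000117, limma), and at its other tested probe the change was -0.57 (adjusted p = 0.0579). At these probes DZNep in high glucose gave -0.25 (adjusted p = 0.0928) and -0.47 (adjusted p = 0.143), and high glucose alone gave -0.49 (adjusted p = 0.0738) and -0.14 (adjusted p = 0.763).

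DZNep was compared with control first. Peg10 rose and Gnas fell at its 3 brighter probes, whereas Peg3, Cdkn1c, Grb10 and Ndn did not pass the test. In all, 1 of 13 probes was higher and 3 were lower at an adjusted p under 0.05, or 30.8%, and 31.1% of all 16311 tested probes passed in this comparison, 17.1% higher and 14.1% lower. Between the 2 groups 6 of the 13 probes did not overlap, as did 43.4% of all tested probes. Median centring of the arrays turned the split of calls over all probes from 2783 higher and 2297 lower to 1331 and 2435. The median log2 change of the 13 probes was -0.03, beside 0.028 for all tested probes. The share of imprinted-gene probes that changed was thus close to the share over the whole array. Fewer cells of a type and less RNA per cell cannot be told apart in these bulk samples.

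Peg10, a paternally expressed gene derived from a retrotransposon and needed for the mouse placenta, is described first among the paternally expressed genes. Its detected probe, ILMN_3037645, is annotated to NM_001040611. On the normalized log2 scale it read 6.04, 6.0 and 5.8 in the control arrays and 6.55, 6.82 and 6.94 with DZNep. It read 5.82, 5.82 and 6.04 in high glucose and 6.96, 7.02 and 7.12 in high glucose plus DZNep. Every array with DZNep was above every array without it, and the order of the group means ran from high glucose (5.89 ± 0.12, SD, n = 3) and control (5.95 ± 0.13) to DZNep (6.77 ± 0.20) and high glucose plus DZNep (7.03 ± 0.08).

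The log2 change of Peg10 with DZNep was 0.83 (SE 0.112), or 1.77-fold, with an adjusted p of 0.000455 in limma. In high glucose the change with DZNep was 1.14 (adjusted p = 7.95e-05), or 2.21-fold, and against control the combination gave 1.09 (adjusted p = 8.77e-05). Control and DZNep were the neighbours in that order that passed. The other neighbours did not, with 0.26 between high glucose plus DZNep and DZNep (adjusted p = 0.495) and -0.05 between high glucose and control (adjusted p = 0.841). The probe was dim, at raw intensities of 169 to 202 in control and 189 to 226 with DZNep, which overlap before correction for each array's background. With no background correction the call stood and the log2 change was 0.352 in place of 0.827, and without control replicate 3 it was 0.755. The other Peg10 probe, ILMN_2543043 (NM_130877), was detected on 0 of 12 arrays.

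**Figure D1:**
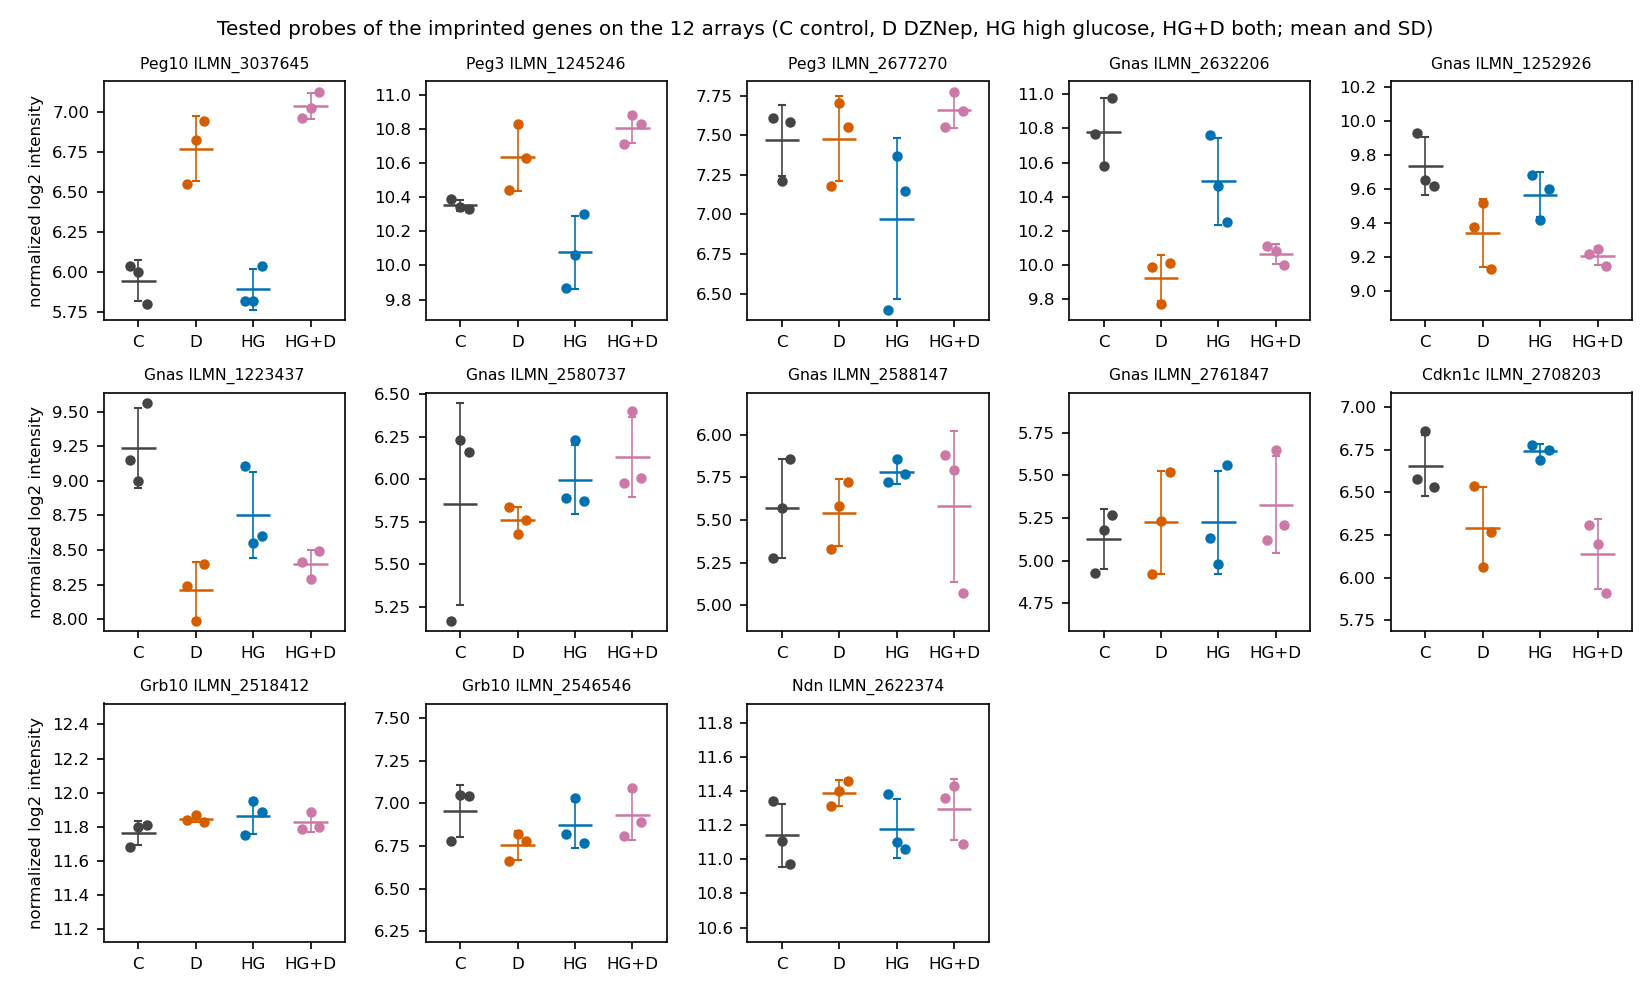
Normalized log2 intensity (y axis, with its own range in each panel) of the 13 tested probes of the imprinted genes on the 12 arrays, by group (C control, D DZNep, HG high glucose, HG+D both), with the mean as a line and the SD as a bar. At Peg10 the 6 arrays with DZNep lie between 6.55 and 7.12 and the 6 without it between 5.8 and 6.04, and the 3 brighter Gnas probes are lower with DZNep than in control.

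Peg3 encodes a zinc finger protein of the paternally expressed copy and had 4 probes, 2 of them detected. Its main probe, ILMN_1245246 (NM_008817), read 10.39, 10.34 and 10.33 in control and 10.44, 10.83 and 10.63 with DZNep. In high glucose it read 9.87, 10.06 and 10.30, and in high glucose plus DZNep 10.71, 10.88 and 10.83. High glucose arrays were the lowest and high glucose plus DZNep arrays were, with the single highest array of DZNep among them, the highest.

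The log2 change of this Peg3 probe with DZNep was 0.28 (SE 0.119) and did not pass (adjusted p = 0.0932), though every DZNep array was above every control array. It passed with no background correction (adjusted p = 0.0411) and without DZNep replicate 1 (adjusted p = 0.0498). In high glucose DZNep raised it by 0.73 (SE 0.119, adjusted p = 0.0018), or 1.66-fold, and the combination was 0.45 above control (adjusted p = 0.0174). High glucose alone gave -0.28 (adjusted p = 0.256). The order of the means was high glucose (10.08 ± 0.22, SD, n = 3), control (10.35 ± 0.03), DZNep (10.64 ± 0.19) and high glucose plus DZNep (10.81 ± 0.09), and no neighbours in that order passed the test. The call for the combination against control was lost without high glucose plus DZNep replicate 2 (adjusted p = 0.0637) or replicate 3 (adjusted p = 0.0546).

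The dimmer Peg3 probe, ILMN_2677270, is annotated to the same transcript. It read 7.61, 7.21 and 7.58 in control, 7.18, 7.70 and 7.55 with DZNep, 6.40, 7.37 and 7.15 in high glucose, and 7.55, 7.77 and 7.65 in high glucose plus DZNep. The control and DZNep arrays overlapped throughout, and high glucose replicate 1 was the lowest array. The log2 change was 0.01 with DZNep (95% interval -0.47 to 0.50, adjusted p = 0.97). In high glucose DZNep gave 0.69 (adjusted p = 0.0515), just short of the threshold, and it passed under 5 of 18 alternative settings, with 0.388 (adjusted p = 0.0165) where background was not corrected. The remaining Peg3 probes, ILMN_1233819 and ILMN_1225513, were detected on 0 arrays. The difference between the detected probes in their response to DZNep alone was not tested.

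Ndn encodes necdin, a paternally expressed member of the MAGE protein family. Its single probe read 11.34, 11.11 and 10.97 in control, 11.31, 11.40 and 11.46 with DZNep, 11.38, 11.10 and 11.06 in high glucose, and 11.36, 11.43 and 11.09 in the combination. The groups overlapped, and the log2 change with DZNep was 0.25 (95% interval -0.02 to 0.52, adjusted p = 0.147). In high glucose DZNep gave 0.11 (adjusted p = 0.583), so a rise of up to 0.52 is within the interval for DZNep alone and none passed.

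Mest, Plagl1 and Dlk1, the other paternally expressed genes, were not called detected on enough arrays to be tested. Mest encodes a protein related to hydrolases, Plagl1 a zinc finger transcription factor and Dlk1 a transmembrane protein related to the ligands of NOTCH. The 3 Mest probes read raw intensities of 111.1 to 157.5, the 3 Plagl1 probes 113.4 to 148.7 and the 2 Dlk1 probes 99.1 to 142.9. A Mest probe, ILMN_2642417, was detected on 1 array, of the high glucose group. The lowest signal of any detected probe lay between 149.2 and 165.3 over the arrays, so these genes were not well above background in any group and no change was measurable for them.

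Gnas encodes the stimulatory G protein alpha subunit, which couples hormone receptors to adenylyl cyclase, and its locus also makes transcripts from maternally and paternally active promoters further upstream. It had 10 probes, and they fell into 3 bright ones, 3 near the detection limit and 4 never detected. The brightest probe, ILMN_2632206 (NM_022000), read 10.77, 10.58 and 10.98 in control and 9.99, 9.77 and 10.01 with DZNep. In high glucose it read 10.76, 10.46 and 10.25, and in the combination 10.11, 10.08 and 10. Every array with DZNep was below every array without it.

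The log2 change of ILMN_2632206 with DZNep was -0.85 (SE 0.135, adjusted p = 0.00113), so the level was 0.554 times that of control. In the combination against control it was -0.71 (adjusted p = 0.00332). In high glucose DZNep gave -0.43 (SE 0.135, adjusted p = 0.047), a call that stood under 5 of 18 alternative settings, with adjusted p-values from 0.0137 to 0.16. The means ran from DZNep (9.92 ± 0.13, SD, n = 3) through the combination (10.06 ± 0.06) and high glucose (10.49 ± 0.26) to control (10.78 ± 0.20). In that order high glucose did not pass against control (-0.29, adjusted p = 0.294), nor did the combination against DZNep (0.14, adjusted p = 0.782).

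The second bright Gnas probe, ILMN_1223437 (NM_001077510), read 9.15, 9.0 and 9.56 in control and 8.24, 7.99 and 8.40 with DZNep. It read 9.11, 8.55 and 8.60 in high glucose and 8.41, 8.29 and 8.49 in the combination, so here too the arrays with DZNep were all below those without it. The log2 change was -1.03 with DZNep (SE 0.175, adjusted p = 0.00163) and -0.84 for the combination against control (adjusted p = 0.00559). In high glucose it was -0.35 and did not pass (adjusted p = 0.185). High glucose alone gave -0.48 (adjusted p = 0.193).

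The third bright Gnas probe, ILMN_1252926 (NM_010309), read 9.93, 9.65 and 9.62 in control, 9.38, 9.52 and 9.13 with DZNep, 9.68, 9.42 and 9.60 in high glucose, and 9.22, 9.25 and 9.15 in the combination. Its log2 change with DZNep was smaller, -0.39 (SE 0.117, adjusted p = 0.0276), and for the combination against control it was -0.52 (adjusted p = 0.00814). In high glucose DZNep gave -0.36 (adjusted p = 0.0522), which passed under 6 of 18 alternative settings. The call for DZNep against control was lost when arrays were centred on their medians (adjusted p = 0.0693) and without control replicate 1 (0.0884), DZNep replicate 1 (0.0583) or DZNep replicate 3 (0.098). Without control replicate 3 the 3 bright Gnas probes gave -0.754, -0.872 and -0.445 in the order described, and each passed.

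The dim Gnas probes did not pass the test. ILMN_2580737 (AK086317), detected on 11 arrays, changed by -0.09 with DZNep (95% interval -0.61 to 0.43), ILMN_2588147 (NM_022000), detected on 9 arrays, by -0.03 (-0.48 to 0.42), and ILMN_2761847 (NM_010309), detected on 3 arrays, by 0.10 (-0.33 to 0.52). They passed in 0 of the 6 comparisons, and the intervals of the first pair hold both no change and a fall of the size seen at ILMN_1252926. Without control replicate 1, ILMN_2580737 gave -0.425 and passed (adjusted p = 0.0483). ILMN_2588147 and ILMN_2761847 carry the same transcript accessions as ILMN_2632206 and ILMN_1252926, which passed. Raw intensities of these 3 probes lay between 132.4 and 192.6, at or near the lowest detected signal. The 4 undetected probes include ILMN_2638324, also annotated to NM_022000. A transcript antisense to Gnas exists, and the sources used here give no probe strand or position, so which transcripts each probe reads was not tested.

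**Figure D2:**
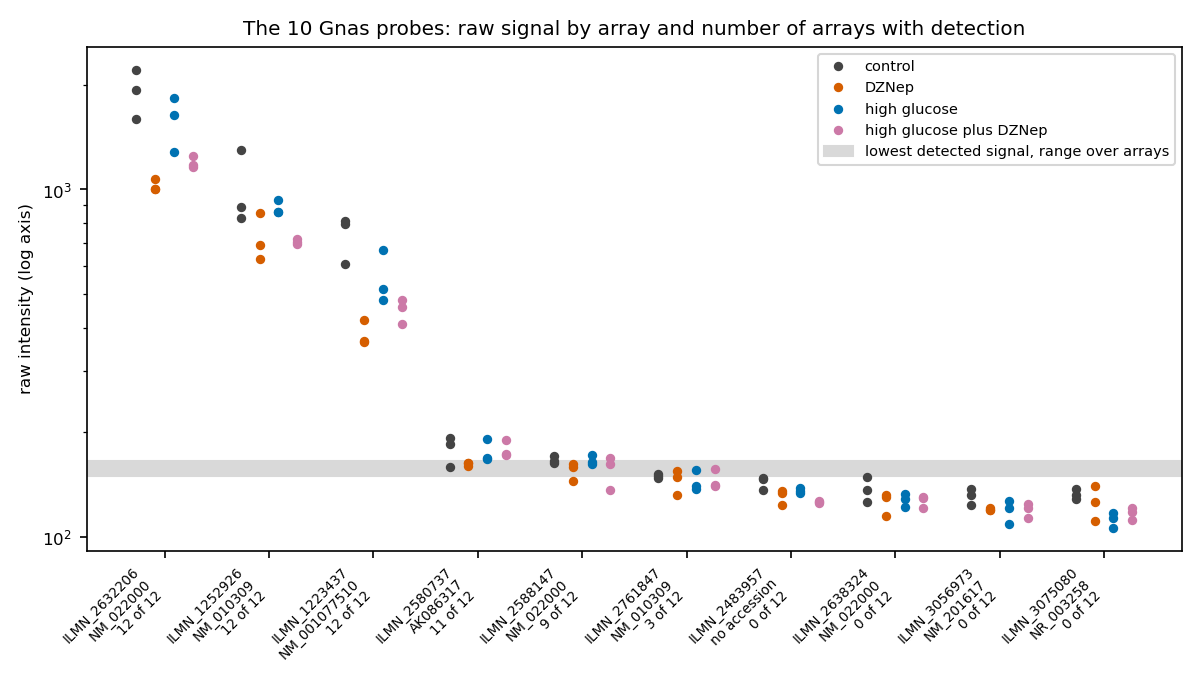
Raw intensity (y axis, log scale) of the 10 Gnas probes on the 12 arrays, with the annotated transcript and the number of arrays with detection under each probe, and a grey band for the range over arrays of the lowest detected signal (149.2 to 165.3). The 3 probes detected on 12 of 12 arrays are lower with DZNep (orange) than in control (dark grey) apart from single overlapping arrays at ILMN_1252926. The others lie around or under the band, apart from ILMN_2580737, which has a median of 170.4 and reaches 192.6.

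Cdkn1c encodes the cyclin-dependent kinase inhibitor p57 and is expressed from the maternal copy. Its single probe, ILMN_2708203, read 6.58, 6.86 and 6.53 in control and 6.54, 6.06 and 6.27 with DZNep. In high glucose it read 6.78, 6.69 and 6.75, and in the combination 6.31, 6.20 and 5.91. High glucose plus DZNep lay below both groups without DZNep, and DZNep alone overlapped with control at 1 array.

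The log2 change of Cdkn1c was -0.37 with DZNep (SE 0.138, adjusted p = 0.0651), -0.60 with DZNep in high glucose (adjusted p = 0.0116) and -0.52 for the combination against control (adjusted p = 0.0185). The first passed with arrays centred on their medians (-0.52, adjusted p = 0.0116), with the authors' processed values (-0.474, adjusted p = 0.0142) and without DZNep replicate 1 (-0.492, adjusted p = 0.0293). The second was lost without high glucose plus DZNep replicate 3 (adjusted p = 0.0517) and was -0.259 with no background correction, where it passed (adjusted p = 0.0122). The third was lost without control replicate 2 (adjusted p = 0.0626) or high glucose plus DZNep replicate 3 (adjusted p = 0.075). Raw intensities of this probe lay between 168.6 and 240.2, so the size of the change depends on the background correction.

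Grb10 encodes an adaptor that dampens signalling of the insulin and insulin-like growth factor receptors and is maternally expressed in most mouse tissues. Its bright probe, ILMN_2518412 (NM_010345), read 11.68, 11.80 and 11.81 in control and 11.84, 11.87 and 11.83 with DZNep, which do not overlap, yet the log2 change was 0.08 (95% interval -0.08 to 0.25, adjusted p = 0.419). It read 11.75, 11.95 and 11.89 in high glucose and 11.79, 11.89 and 11.80 in the combination. The second probe, ILMN_2546546 (AK012646), read 6.78, 7.05 and 7.04 in control and 6.66, 6.82 and 6.78 with DZNep, a change of -0.20 (95% interval -0.44 to 0.03, adjusted p = 0.17) that passed with arrays centred on their medians (-0.352, adjusted p = 0.044). The probes thus differed in sign and did not pass, and the third, ILMN_1257352 (AK080969), was detected on 0 arrays.

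High glucose against control changed none of the 13 probes in limma, where 0.123% of all tested probes passed. At an unadjusted p under 0.05 there were 3, the 2 Peg3 probes and Gnas ILMN_1223437, all lower in high glucose, and 18% of all tested probes were under that threshold. The arrays of the groups were apart for 1 probe, Peg3 ILMN_1245246, and 20.3% of all tested probes were apart in this comparison. The median log2 change of the 13 probes was -0.05, beside 0.022 for all. Intervals were wide for some, such as -0.98 to -0.01 for Peg3 ILMN_2677270 and -0.87 to -0.10 for Gnas ILMN_1223437.

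DZNep in high glucose raised 2 probes, of Peg10 and Peg3, and lowered 2, of Gnas and Cdkn1c, which is 30.8% of the 13, beside 19% of all tested probes, 10.1% higher and 8.93% lower (1643 and 1457, or 1992 and 1150 with the authors' processed values). The median log2 change was 0.06, beside 0.005 for all, and 7 of the 13 probes did not overlap between the groups, where 40.7% of all tested probes did not. Against control, the combination raised the same 2 probes and lowered 4, the 3 bright Gnas probes and Cdkn1c. That is 46.2%, beside 26% of all tested probes (14.2% higher and 11.8% lower), and 6 of the 13 did not overlap, as did 42.9% of all. This comparison shares its control and combination arrays with the others. High glucose plus DZNep against DZNep gave 0 calls among the 13 (limma), with 1 at an unadjusted p under 0.05, and 0.0736% of all tested probes passed, with 9.56% at an unadjusted p under 0.05. Here 2 of the 13 did not overlap, beside 18.5% of all.

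The difference between the responses to DZNep with and without high glucose was tested as an interaction. It passed for 0 of the 13 probes in limma, with 3 at an unadjusted p under 0.05, and for 0.0368% of all tested probes, of which 15.6% had an unadjusted p under 0.05. The estimates of these 3 were 0.44 for Peg3 ILMN_1245246 (95% interval 0.07 to 0.82, adjusted p = 0.249), 0.67 for Gnas ILMN_1223437 (0.13 to 1.22, adjusted p = 0.24) and 0.43 for Gnas ILMN_2632206 (0.01 to 0.84, adjusted p = 0.316). For Peg10 it was 0.31 (-0.03 to 0.66, adjusted p = 0.362). The smaller Gnas change and the larger Peg3 change in high glucose were therefore not shown to differ from those without it after adjustment. The intervals are not adjusted for the number of probes, and differences of the sizes within them remain possible. The smallest difference that 3 arrays a group could detect was not computed.

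**Figure D3:**
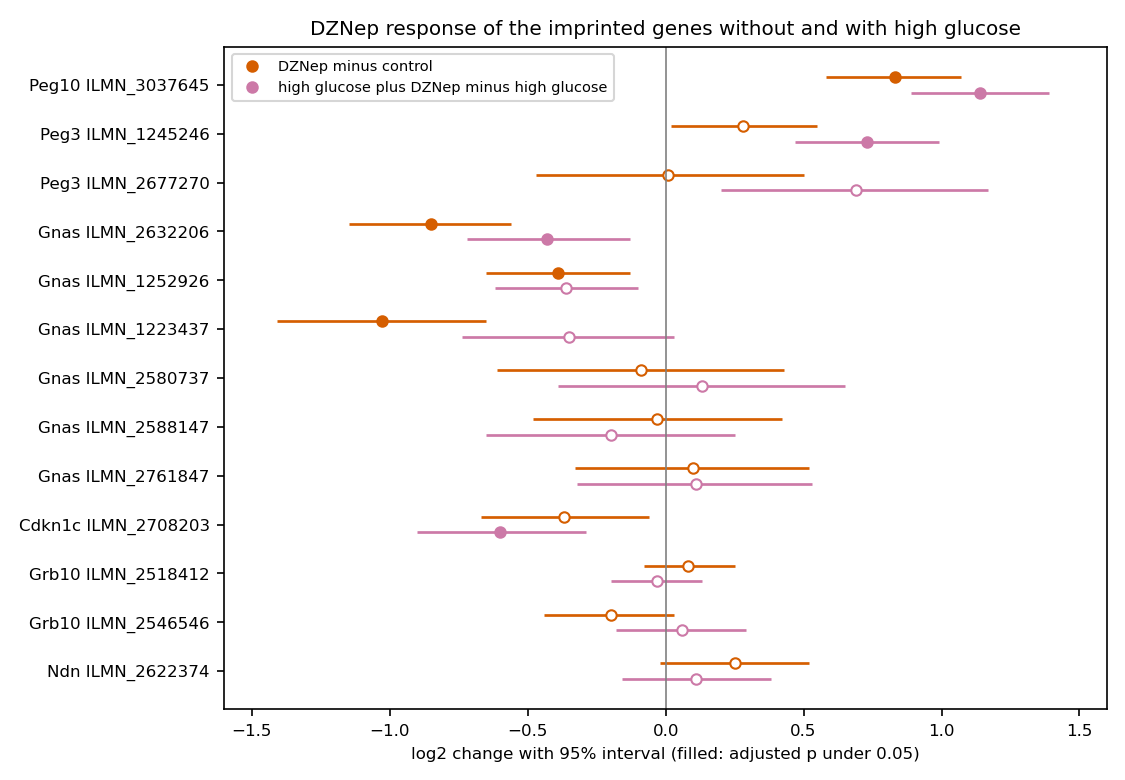
Log2 change with DZNep (x axis) and its 95% interval for each tested probe of the imprinted genes, without high glucose (orange) and in high glucose (pink), with filled points at an adjusted p under 0.05. Peg10 is filled at 0.83 and 1.14, and the bright Gnas probes lie at -0.85, -0.39 and -1.03 without high glucose and at -0.43, -0.36 and -0.35 in it.

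Other genes listed as imprinted in the mouse were read for comparison. The parental copy named is that of the list, and whether each gene is imprinted in these cells was not tested. Of 22 paternally expressed genes 18 had a probe and 6 a tested one, and of their 9 probes 1 rose and 2 fell with DZNep, or 33.3%, with a median log2 change of -0.06. Of 29 maternally expressed genes 27 had a probe and 12 a tested one, and of their 25 probes 5 rose and 4 fell, or 36%, with a median of -0.07. One of the 5 that rose, of Slc22a18, entered the test through its DZNep arrays alone, and of the other 24 probes 4 rose and 4 fell (33.3%). Both shares are near the 31.1% of all tested probes. In high glucose DZNep raised 1 and lowered 1 of the 9 paternal probes (22.2%) and raised 2 and lowered 3 of the 25 maternal probes (20%), beside 19% of all. High glucose alone changed 0 of either list, with 2 and 5 probes at an unadjusted p under 0.05 (limma), beside 18% of all tested probes.

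Among the paternally expressed genes, Snurf, which shares a transcript with the splicing protein gene Snrpn, read 7.34, 7.45 and 8.20 in control at ILMN_2741277 and 6.79, 6.80 and 6.81 with DZNep. The log2 change was -0.86 (adjusted p = 0.00553), and it was -0.594 without control replicate 3, the highest array, and -0.505 with no background correction, and passed in both. The other tested Snurf probes did not pass. They gave -0.06 at ILMN_1247894, detected on 12 arrays, and 0.21 at ILMN_2748091, detected on 8 arrays and on 1 of the control arrays. The difference between the Snurf probes was not tested. With DZNep in high glucose, ILMN_1247894 passed, with a fall of 0.37 on the log2 scale (adjusted p = 0.0359), a call that stood under 11 of 18 alternatives. ILMN_2741277 gave -0.30 there (adjusted p = 0.285, limma). At that probe high glucose alone gave -0.54 (adjusted p = 0.174), and the combination against control gave -0.84 (adjusted p = 0.00726). Nnat, which encodes neuronatin, a small membrane protein, fell by 0.70 with DZNep (adjusted p = 0.0129, limma), a call lost without DZNep replicate 2 (adjusted p = 0.0503). Its other tested probe gave -0.41 (adjusted p = 0.14). That probe was detected on 3 of 12 arrays, 2 of control and 0 with DZNep, so the size of its change was not measured. Peg13, a non-coding RNA, rose by 0.39 (adjusted p = 0.0382), a call that stood under 9 of 18 alternatives.

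Among the maternally expressed genes, Dcn, which encodes the matrix proteoglycan decorin, rose at both of its tested probes with DZNep, by 0.63 (adjusted p = 0.00764, lost with arrays centred on their medians at 0.0623) and 0.50 (adjusted p = 0.00533). Slc22a18, a membrane transporter of the cluster that also holds Cdkn1c, was detected on 3 of 3 arrays with DZNep and on 0 of 9 others, so its probe passed the detection filter only through the group where it is high, and no test is given for it. As a description, it was at least 1.23-fold higher with DZNep than in control. This bound sets the DZNep mean against the lowest detected signal of each control array or the probe's own value, whichever is higher. Tssc4 and Cd81, of the same stretch of chromosome, rose by 0.37 (adjusted p = 0.0416) and 0.21 (adjusted p = 0.0247), calls that stood under 6 and 13 of 18 alternatives, and the other tested Tssc4 probe gave 0.21 (adjusted p = 0.107). Ppp1r9a, which encodes the actin-binding neurabin and neighbours Peg10, fell by 0.60 (adjusted p = 0.0142), a call lost without control replicate 3 (adjusted p = 0.0501). Trappc9 fell by 0.45 (adjusted p = 0.0441) at a probe whose partner gave -0.24 (adjusted p = 0.0853), and H13 by 0.30 and 0.22 at 2 of its 8 tested probes, and these calls stood under 7, 18 and 7 of 18 alternatives. The other tested H13 probes gave changes of both signs, from -0.12 to 0.37, and none of them passed.

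Neighbours of the 10 genes gave changes of both signs. Within 1 Mb of Cdkn1c in the RefSeq order, Tssc4 (at 1 of 2 tested probes) and Cd81 were higher with DZNep where Cdkn1c gave -0.37. Kcnq1ot1, the long non-coding RNA of that cluster expressed from the paternal copy, gave -0.15 with DZNep (adjusted p = 0.363). In high glucose it read 7.68, 7.67 and 7.95, and in high glucose plus DZNep 8.32, 8.32 and 8.23, a rise of 0.52 (adjusted p = 0.0114). The control arrays read 8.31, 8.06 and 8.43, so the combination lay at the control level (0.02, adjusted p = 0.916), and high glucose alone lay below it without passing (-0.50, adjusted p = 0.107). Tssc4 rose there at ILMN_2501601, by 0.49 (adjusted p = 0.00438), with 0.32 (adjusted p = 0.0928) at its other tested probe, and Cdkn1c fell. Near Peg10, Ppp1r9a fell with DZNep alone while Peg10 rose. In high glucose DZNep gave -0.11 at Ppp1r9a (adjusted p = 0.682, limma), and high glucose alone gave -0.39 (adjusted p = 0.228). Sgce, which shares a promoter region with Peg10, was not detected on enough arrays to be tested. The neighbours Zim1 and Usp29 of Peg3 and Igf2 were likewise not tested.

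Of the 5 maternal probes that passed for DZNep in high glucose, those not yet named were of Dcn, which rose by 0.41 (adjusted p = 0.0199), and of Atp10a, H13 and Igf2r, which fell by 0.29, 0.26 and 0.23 (adjusted p = 0.032, 0.0277 and 0.035). The calls stood under 15, 9, 10 and 9 of 18 alternatives in that order. The other tested probes of Dcn and Igf2r gave 0.23 (adjusted p = 0.309) and -0.26 (adjusted p = 0.0781). The other tested H13 probes gave changes of both signs, from -0.23 to 0.18, and none of them passed. Igf2r is the receptor that clears insulin-like growth factor 2.

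**Figure D4:**
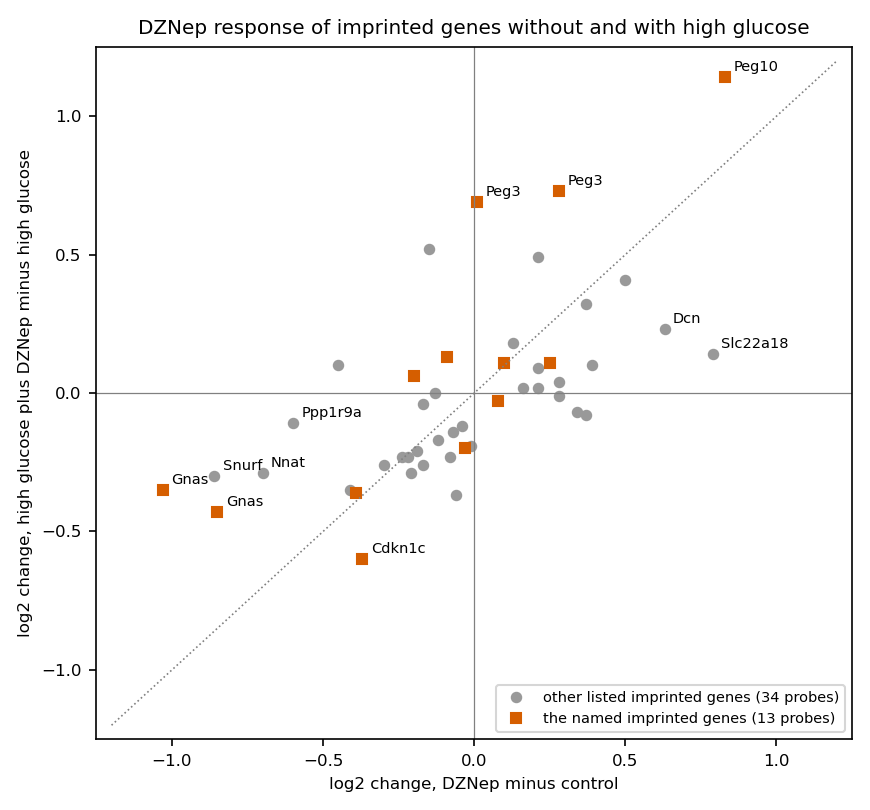
Log2 change with DZNep without high glucose (x axis) against the change with DZNep in high glucose (y axis) for the 13 tested probes of the imprinted genes (squares) and 34 probes of the other listed imprinted genes (circles), with the dotted line marking equal changes. Peg10 lies at 0.83 and 1.14, and the labelled points of Gnas, Snurf, Nnat and Cdkn1c lie below 0 on both axes.

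Genes that set or keep imprints were read from a list of 24, of which 22 had a probe and 17 a tested one. With DZNep 3 of their 24 probes rose and 2 fell, or 20.8% beside 31.1% of all tested probes, with a median log2 change of -0.04. The falls were at Ezh2 and at Smchd1, a chromatin protein of the inactive X chromosome and of imprinted clusters, which read 9.29, 9.45 and 9.79 in control and 8.53, 8.83 and 8.96 with DZNep at ILMN_1242619. The Smchd1 change was -0.74 (adjusted p = 0.00209), with -0.44 (adjusted p = 0.0565) and -0.14 (adjusted p = 0.721) at its other tested probes. The rises were at both tested probes of Ehmt2, a histone H3 lysine methyltransferase (0.33, adjusted p = 0.047, and 0.32, adjusted p = 0.0291), and at Trim28, the corepressor that protects imprints (0.24), calls that stood under 5, 14 and 7 of 18 alternatives. Dnmt1, which copies DNA methylation, gave 0.19 (adjusted p = 0.183). In high glucose 1 of the 24 probes passed, Arid4b at 0.63 (adjusted p = 0.0445, past the threshold under 6 of 18 alternatives, where DZNep alone gave -0.53, adjusted p = 0.0595), or 4.17% beside 19% of all, and high glucose alone changed 0, with 3 at an unadjusted p under 0.05 (limma), beside 18% of all.

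The genes with the most similar pattern over the 12 arrays were found by the root mean square difference of centred log2 values. For Peg10 they were Zfp148 (0.107) and Zfp52 (0.124), against a median of 0.54 over all tested probes. For Gnas ILMN_2632206 they were Rbms2 (0.081) and Adk (0.095), against a median of 0.42. The points share the 12 arrays, and the likeness follows mostly the split by DZNep, with changes of 0.74 and 0.81 for the first pair and -0.81 and -0.88 for the second.

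Summed levels of the markers of other cell types were taken as background-corrected and quantile-normalized intensity over the detected genes of each list. Each gene entered with its brightest tested probe, so bright genes weigh most in a sum. Endothelial markers summed to 413 to 515 in control, 632 to 745 with DZNep, 463 to 487 in high glucose and 626 to 721 in the combination, with 5 of 8 genes detected and Pecam1 and Cdh5 not detected. Leukocyte markers summed, in the same order, to 99 to 145, 193 to 220, 86 to 132 and 149 to 179, from Csf1r and Laptm5 alone, with Ptprc not detected. Mesangial and fibroblast markers summed to 66673 to 68562, 60512 to 64052, 62524 to 65325 and 60321 to 63830, with 7 of 9 detected. Tubular markers, 6 of 8 detected, summed to 15801 to 16386, 12927 to 15683, 20480 to 21609 and 18318 to 19787. Parietal epithelial markers, 5 of 6 detected, summed to 2295 to 2838, 2094 to 2160, 1834 to 2369 and 2412 to 2464, and podocyte markers to 15405 to 17157, 17282 to 18519, 16830 to 17331 and 16196 to 18249. Their part in the changes of the imprinted genes was not tested.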

How the data were processed

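Biotin-labelled cRNA of 12 cell samples was put on Illumina mouse arrays, as the labels' protocols describe. The authors deposited linear intensity values, not normalized, with a detection p-value per probe and array, per the file headers. GenomeStudio was used, per the submitters' processing notes, in a version not given in the sources used here. The authors' processed values, a linear rescaling of the same intensity values to a common mean of 568.254, served as an alternative; what their offset removes is unknown.

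Background was removed by normexp with parameters inferred from the detection p-values and an offset of 16, followed by quantile normalization and log2 in limma 3.58.1 (R 4.3.3), which understates changes of dim probes. Of 45281 probes, 34885 had 1 symbol in the platform annotation, 18 several and 10378 none. Of these, 16311 with 1 symbol passed detection (p under 0.05 on 3 arrays or more) and were tested in 1 linear model of the 4 groups (11.29 residual degrees of freedom with the prior). Benjamini-Hochberg adjustment ran over all 16311 probes in each of 6 comparisons, with calls under 0.05. Precision is limited by the 3 arrays a group. The script was tested on simulated data.

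Replicate numbers did not pair the arrays: of 18 same-numbered pairs, 2 correlated over 0.1. No sample was imputed or left out of the model. The rule names all probes of the 10 genes, up to 5 genes in each direction per list among those that passed, Ezh2, and the 2 genes nearest in pattern to a gene whose brightest probe passed with DZNep. The members and lists were chosen with earlier results of these data known. Alternatives were no background correction, array medians in place of quantile normalization, the authors' values, no or a stricter detection filter, the replicate block and each array left out. For called probes of the lists, those beyond the first pair were chosen after seeing the data.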

Additional observations from a re-analysis of the deposited data

How the results depend on the processing

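The rise of Peg10 in all 3 comparisons with DZNep, the falls of Gnas ILMN_2632206 and ILMN_1223437 against control in both DZNep groups, that of Gnas ILMN_1252926 for the combination against control and the rise of Peg3 ILMN_1245246 in high glucose passed under all 18 alternatives. Counts of all probes past the threshold moved more. High glucose against control gave 20, with 283 under no background correction, 65 under the stricter filter and 10 to 77 with an array left out. DZNep in high glucose gave 3100, with 1906 under array medians and 1938 to 3557 with an array left out, where the imprinted-gene probes called ranged from 2 to 5. High glucose plus DZNep against DZNep gave 12, with 23 under no background correction, 6 with the replicate block and 5 to 17 with an array left out, and the combination against control gave 4239 and 2773 to 4203. The interaction gave 6, with 145 under no background correction, 17 under array medians, 13 under the stricter filter, 0 with the authors' values, no filter or the replicate block, and 0 to 20 with an array left out. Array medians turned the calls with DZNep from 54.8% higher to 35.3% higher (1331 higher and 2435 lower). The replicate block gave 4, 0 and 4 calls among the imprinted-gene probes for DZNep, high glucose and DZNep in high glucose, and Gnas ILMN_2632206 lost its call in high glucose (adjusted p = 0.0541), while Peg3 ILMN_2677270 gained one (adjusted p = 0.0483).

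The changes listed next turned sign under some alternative, and none of them passed, as reported or where turned. With DZNep, Peg3 ILMN_2677270 gave -0.116 under array medians, -0.057 with the authors' values and -0.116 to 0.161 with an array left out, and Gnas ILMN_2580737 gave -0.425 to 0.099, ILMN_2588147 -0.17 to 0.115 and ILMN_2761847 -0.051 to 0.251. In high glucose against control, ranges with an array left out were -0.193 to 0.335 (ILMN_2580737), -0.074 to 0.216 (ILMN_2761847) and -0.058 to 0.141 (Ndn). For DZNep in high glucose they were -0.005 to 0.247, -0.351 to 0.053 and -0.058 to 0.275 for these dim Gnas probes in the same order as with DZNep, -0.089 to 0.01 for Grb10 ILMN_2518412 (0.016 with the authors' values) and -0.023 to 0.137 for ILMN_2546546. In the combination against DZNep the ranges were -0.11 to 0.294 for Gnas ILMN_2588147 and -0.059 to 0.253 for ILMN_2761847. In the combination against control they were -0.065 to 0.466 for ILMN_2580737 and -0.138 to 0.266 for ILMN_2588147 (-0.008 under array medians, -0.037 with the authors' values), and in the interaction -0.323 to 0.081 for ILMN_2588147 and -0.154 to 0.179 for ILMN_2761847. The rest were Grb10 ILMN_2518412 in the combination against DZNep (0.012 under array medians), Ndn there (-0.165 to 0.005), Grb10 ILMN_2546546 in the combination against control (-0.112 to 0.036) and the interaction at Gnas ILMN_1252926 (-0.08 to 0.116). The cause was not tested. Of the list probes called with DZNep, Snurf ILMN_2741277, Smchd1 ILMN_1242619, Ezh2 ILMN_1234171, Dcn ILMN_2747959 and H13 ILMN_2700292 passed wherever they were tested. Signals near background limit the dim probes.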
